A study of Dicentrarchus labrax with 23 samples.

Results

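Lysozyme C, lysozyme g, a beta-defensin, LEAP-2-like and LEAP-2 were followed along the intestine of European sea bass (Dicentrarchus labrax), as the 5 probes of a custom array that the study annotated as lysozyme C (CUST_L12_66506), lysozyme g (CUST_L4_47403), beta-defensin (CUST_L2_17762), liver-expressed antimicrobial peptide 2-like (CUST_L12_73806) and liver-expressed antimicrobial peptide-2 (CUST_L1_40193). They are 5 of the 14147 probes of the array, and they were chosen by these names. The study compared the anterior (AI), middle (MI) and posterior (PI) intestine of fish on a commercial diet, sampled in midsummer after an overnight fast, with no treatment and no other group. AI was cut right behind the pyloric caeca, MI halfway along the intestine and PI at the end with the rectum. There were 8 AI, 7 MI and 8 PI arrays, each of labeled RNA from 1 segment of 1 fish. Each piece was whole tissue, so a probe that is lower in a segment may have fewer cells of a type or less RNA per cell, and these cannot be told apart. The names rest on best sequence matches in other species, and all 5 belong to the genes that the study called between AI-MI and PI on these same arrays. Their differences from PI were therefore not independent evidence of a direction, a call or a lack of overlap. Only AI vs. MI had a direction that the choice did not set. The study also measured lysozyme C, beta-defensin and a LEAP-2 by quantitative PCR in AI and PI. Over all genes so measured it reports a strong linear correlation with the array. Those PCR values were not analysed here. The study's call joined AI and MI in 1 group, which favors probes alike in both. No sequence or genome position of the probes was analysed here.

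Lysozymes cut the sugar chains of bacterial cell walls. The C type is the chicken egg-white form and the g type the goose form, which share this reaction but little of their sequence. Beta-defensins are short, cationic, cysteine-bridged peptides of epithelia that damage microbial membranes. LEAP-2, a cysteine-bridged peptide first found in human blood, is made in mammals by the liver and the small intestine, and in mammals it is also known as an antagonist of the ghrelin receptor.

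Signals are given on a log2 scale, with the 75th percentile of each array at 0, so that 1 unit is a 2-fold difference of one probe between arrays and levels of different probes cannot be ranked. The members had 1 spot each, none was saturated or left out, and 4 of the 5 were well above background on all 23 arrays. Beta-defensin was well above background on 22 of 23, all but MI replicate 2. Between 82.8 and 93.1% of the probes of an array were well above background, and the 75th percentile ranged from 388 to 1183 intensity units. Differences were tested with limma over the 12894 probes well above background on at least 7 arrays, two-sided and with Benjamini-Hochberg adjustment, and called at an adjusted p under 0.05. Of the 10 enterocyte markers, 8 were well above background on every AI array, 8 on every MI array and 9 on every PI array. The others, liver-type fatty acid-binding protein and cadherin-17, had spots left out as outliers on some arrays. A spot left out was counted as not well above background, so these counts do not show that the probes were dim. In several of the results below PI replicates 7 and 8 differed from the rest of PI, and AI-MI minus PI is therefore also given without them for each member.

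Lysozyme C and LEAP-2-like were higher in AI-MI than in PI, beta-defensin and lysozyme g were higher in PI, and LEAP-2 was higher in AI-MI by a smaller amount. All 5 members were called in AI-MI vs. PI, a comparison that called 44.1% of all probes tested (21.5% with AI-MI above PI, 22.6% with AI-MI below) and by which the study had selected these names. With normexp background correction, the calls split into 3740 with AI-MI above PI and 2129 below, against 2772 and 2912 here, and the median difference of all probes went from 0.01 to 0.13, but the members kept their directions and calls. The groups did not overlap for 3 of the 5 members, lysozyme C, beta-defensin and LEAP-2-like, beside 8.36% of all probes. Selection by AI-MI vs. PI also favored groups that do not overlap, so nothing can be read from these counts against the shares of all probes. By size of the difference, lysozyme C stood at place 36 of 12894, beta-defensin at 45, LEAP-2-like at 97, LEAP-2 at 718 and lysozyme g at 757. The place of beta-defensin rests on AI signals close to background, and its difference went from -7.29 to -5.44 with normexp.

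**Figure D1:**
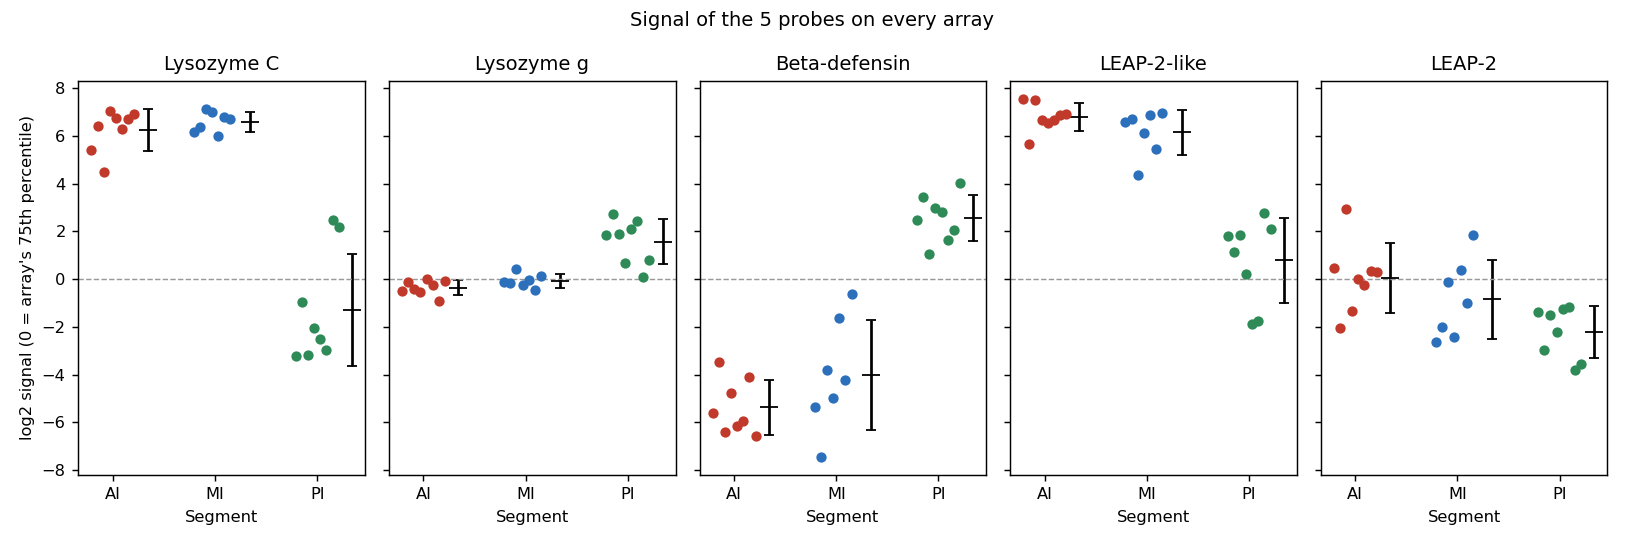
Log2 signal of the 5 probes (vertical axis, 0 is the 75th percentile of an array) on each of 8 AI, 7 MI and 8 PI arrays, with 1 point per array and the mean ± SD beside the points. Lysozyme C and LEAP-2-like lay above 4 in AI and MI and below 3 in PI, beta-defensin lay below 0 in AI and MI and above 1 in PI, and LEAP-2 overlapped between all segments.

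The log2 signal of lysozyme C was 4.48 at the lowest, 6.54 at the median and 7.04 at the highest in AI. In MI it was 5.99, 6.70 and 7.12. In PI it was -3.23, -2.28 and 2.48. The AI and MI ranges overlapped, and every AI and MI array lay above every PI array. The gap between the lowest of these 15 arrays, AI replicate 3, and the highest PI array was 2.0, or 4.01-fold. Within PI, replicates 7 and 8 stood at 2.48 and 2.19 and the other 6 arrays between -3.23 and -0.97. In AI the mean was 6.25 ± 0.87 (SD, n = 8), while MI had 6.59 ± 0.42 (SD, n = 7) and PI had -1.28 ± 2.35 (SD, n = 8). AI-MI was thus higher than PI by 7.69 ± 0.61 (SE), or 207-fold (95% interval 86.5- to 494-fold, limma adjusted p = 2.9e-10). Without PI replicates 7 and 8 this difference was 8.90, or 477-fold, and with normexp it was 7.09, or 136-fold. The 95% interval takes the same spread in both groups, although the SD was 0.70 in AI-MI and 2.35 in PI, so it may be too narrow. The same holds for lysozyme g and LEAP-2-like, which also spread more in PI. The main fits also took arrays of equal number as independent, although these may share a fish. AI and MI each exceeded PI when tested alone, by 7.53 ± 0.81 (SE, adjusted p = 1.3e-06) and 7.88 ± 0.82 (SE, adjusted p = 2.0e-06).

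Lysozyme g ran the other way, over a smaller range. Its lowest, median and highest log2 signals were -0.94, -0.33 and 0.00 in AI. They were -0.47, -0.11 and 0.42 in MI. In PI they were 0.07, 1.88 and 2.74. No AI array reached the lowest PI array, but the gap was a narrow 0.07, and PI replicate 7, at 0.07, lay within the MI range. PI replicates 4 and 8 were also low among the PI arrays, at 0.67 and 0.79. Lysozyme g was lower in AI-MI, with AI-MI minus PI at -1.79 ± 0.25 (SE), or 3.46-fold (95% interval 2.41- to 4.97-fold, adjusted p = 3.5e-06). Without PI replicates 7 and 8 this was -2.17, or 4.496-fold. Its spread was narrow in AI (SD 0.31) and MI (SD 0.28), where the median probe had an SD of 0.38 and 0.34, and wide in PI (SD 0.94), where 95.6% of the probes tested had a smaller SD.

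The 2 lysozyme probes were then set against each other within each array, where the scaling between arrays cancels. The difference of lysozyme C minus lysozyme g averaged 6.60 ± 0.89 (SD, n = 8) on AI arrays, 6.67 ± 0.46 (SD, n = 7) on MI arrays and -2.85 ± 3.07 (SD, n = 8) on PI arrays. The AI-MI arrays and the PI arrays did not overlap, with the PI arrays running from -5.40 to 2.40. The shift between AI-MI and PI was 9.48 (exact permutation test, two-sided, p = 2.0e-06, the smallest that 490314 splits allow), and 11.07 without PI replicates 7 and 8 (exact permutation p = 1.8e-05, the smallest for 54264 splits). This shift joins 2 differences that are both given above and whose directions the choice of names had set. The permutation test, also used for the LEAP-2 pair below, took all arrays as exchangeable. Both within-array differences spread more in PI than in AI and MI, so its p-values against PI may be too small. Arrays of equal number may share a fish, and the test was not run by pairs. Between AI and MI, where the choice of names set no direction, the shift was -0.06 (exact permutation p = 0.874).

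Beta-defensin was low in AI and MI and high in PI. Its lowest, median and highest log2 signals were -6.57, -5.78 and -3.47 in AI. In MI they were -7.45, -4.24 and -0.62, a range of 113.8-fold. In PI they were 1.03, 2.64 and 4.04, and no AI or MI array reached the lowest PI array. The gap was 4.5 between AI and PI, and 1.65 between MI and PI because of MI replicates 7 and 5, at -0.62 and -1.65, which stood above the other 5 MI arrays. In AI the mean was -5.37 ± 1.15 (SD, n = 8), while MI had -4.02 ± 2.30 (SD, n = 7) and PI had 2.55 ± 0.97 (SD, n = 8). Beta-defensin was higher in PI, with AI-MI minus PI at -7.29 ± 0.67 (SE), or 156.95-fold (95% interval 60.6- to 407-fold, adjusted p = 3.2e-09). Without MI replicates 5 and 7 the difference was -7.85, or 231-fold, and without PI replicates 7 and 8 it was -7.13, or 140.0-fold. Its AI signals were close to the background, with 4 of 8 arrays within 1 log2 unit of the lowest signal called well above it, and normexp, which raises dim signals, gave 43.4-fold. The fold therefore depended on how background was treated, while the direction and the call did not.

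LEAP-2-like was high in AI and MI and low in PI, as lysozyme C was, but partly other arrays departed from the means. Its lowest, median and highest log2 signals were 5.66, 6.77 and 7.54 in AI. In MI they were 4.34, 6.59 and 6.96, the lowest being replicate 3. In PI they were -1.89, 1.47 and 2.75, all below every AI and MI array, with a gap of 1.59. The PI arrays spread over a 24.9-fold range, from replicates 5 and 6 at -1.89 and -1.75 to replicates 8 and 7 at 2.09 and 2.75. LEAP-2-like was higher in AI-MI than in PI by 5.71 ± 0.50 (SE), or 52.4-fold (95% interval 25.5- to 107.95-fold, adjusted p = 1.9e-09). Without PI replicates 7 and 8 the difference was 6.26, or 76.6-fold. AI alone exceeded PI by 6.01 ± 0.60 (SE, adjusted p = 5.9e-07) and MI alone by 5.37 ± 0.68 (SE, adjusted p = 1.5e-05).

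LEAP-2 had the smallest difference next to its spread. Its lowest, median and highest log2 signals were -2.05, 0.15 and 2.94 in AI, the highest being replicate 3. In MI they were -2.65, -1.01 and 1.86, the highest being replicate 7. In PI they were -3.81, -1.85 and -1.15. The segments overlapped, and 10 of the 15 AI-MI arrays exceeded the highest PI array. AI-MI was higher than PI by 1.86 ± 0.59 (SE), or 3.62-fold (95% interval 1.56- to 8.41-fold, adjusted p = 0.0127). This call was lost without PI replicates 7 and 8, the lowest PI arrays at -3.81 and -3.54 (difference 1.37, adjusted p = 0.0879). AI vs. PI was called (difference 2.28 ± 0.59 SE, adjusted p = 0.0048) and MI vs. PI was not (difference 1.37 ± 0.65 SE, 95% interval -0.01 to 2.75, adjusted p = 0.114).

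The difference of LEAP-2-like minus LEAP-2 within an array averaged 6.74 ± 1.04 (SD, n = 8) on AI arrays, 7.0 ± 1.87 (SD, n = 7) on MI arrays and 3.0 ± 2.61 (SD, n = 8) on PI arrays. It ran from 4.45 to 9.24 in MI and from -0.65 to 6.56 in PI, so that the segments overlapped, the highest PI arrays being replicates 7 and 8. The shift between AI-MI and PI was 3.86 (exact permutation test, two-sided, p = 0.00015), the mean difference between segments being larger for LEAP-2-like than for LEAP-2. The wider spread in PI means that this p-value may be too small. Without PI replicates 7 and 8 the shift was 4.89 (exact permutation p = 1.8e-05, the smallest for 54264 splits) and the groups no longer overlapped. Between AI and MI the shift was -0.26 (exact permutation p = 0.735).

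**Figure D2:**
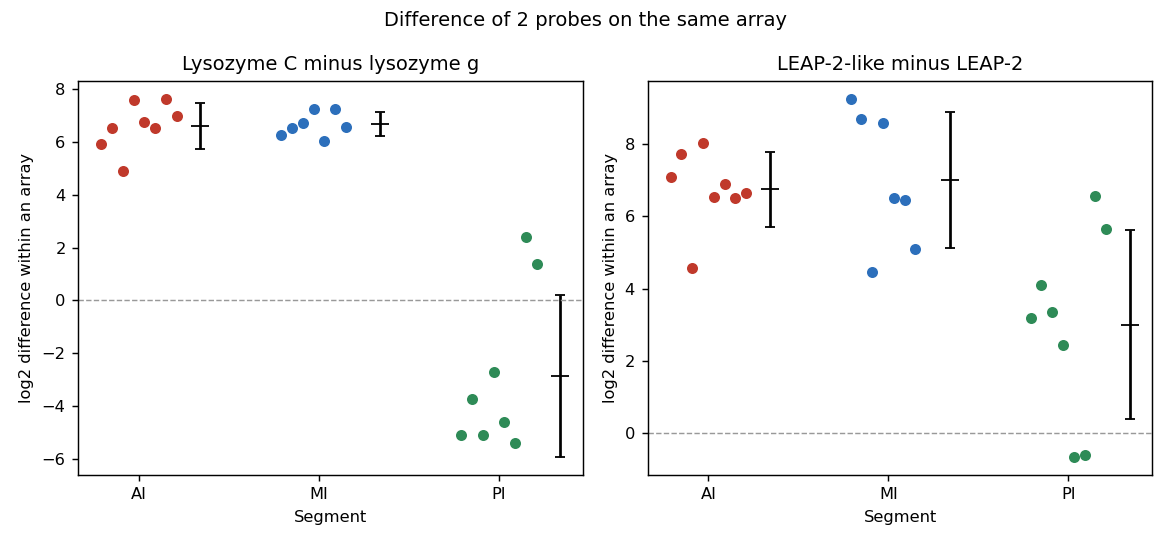
Log2 difference of lysozyme C minus lysozyme g (left) and of LEAP-2-like minus LEAP-2 (right) on the same array (vertical axes), with 1 point per array and the mean ± SD for 8 AI, 7 MI and 8 PI arrays. PI replicates 7 and 8 were the highest PI points in both panels and, at 6.56 and below, reached into the AI and MI range only for the LEAP-2 pair.

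Split by segment, 5 of 5 members were called in AI vs. PI, where 42.1% of all probes were, and 4 of 5 in MI vs. PI, where 35% were. AI and PI did not overlap for 4 of 5 members, all but LEAP-2, beside 12.6% of all probes. MI and PI did not overlap for 3 of 5, lysozyme C, beta-defensin and LEAP-2-like, beside 11.7%. For beta-defensin, AI minus PI was -7.93 ± 0.49 (SE) and MI minus PI -6.57 ± 0.81 (SE), or 243.6- and 94.98-fold. For lysozyme g they were -1.92 ± 0.33 (SE) and -1.64 ± 0.34 (SE). These comparisons share the PI arrays. The names were selected by a call against PI on these same arrays, which favored calls and a lack of overlap here. Nothing can therefore be read from these counts against the shares of all probes.

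AI vs. MI was the comparison whose direction the choice of names did not set, and none of the 5 members was called in it. That choice favored probes alike in AI and MI, so the lack of calls is not independent evidence of likeness. The comparison called 0 of the 12894 probes (0%), while 1638 (12.7%) had an unadjusted p under 0.05, and 0 of the 5 members did. The test named in the study's methods also called 0 probes here, and a joint fit with the PI arrays called 49, none of them a member. Beta-defensin had the widest interval, with AI minus MI at -1.36 (95% interval -3.14 to 0.42, adjusted p = 0.527). Without MI replicates 5 and 7 that difference was -0.21. LEAP-2 had an AI minus MI difference of 0.91 (interval -0.65 to 2.47, adjusted p = 0.645), and LEAP-2-like of 0.65 (interval -0.15 to 1.44, adjusted p = 0.497). Lysozyme C had -0.34 (interval -1.06 to 0.37, adjusted p = 0.713). Lysozyme g had -0.28 (interval -0.62 to 0.06, adjusted p = 0.485), the narrowest of the 5. These intervals left room for differences of more than 2-fold in every member but lysozyme g.

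**Figure D3:**
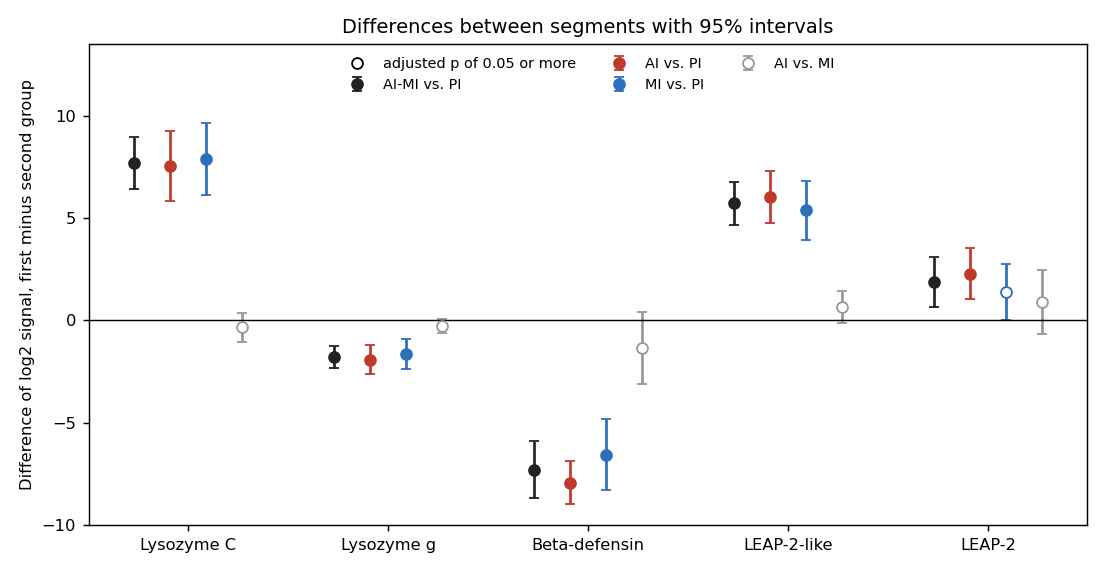
Difference of log2 signal between segments (vertical axis, first minus second group) for the 5 probes in the 4 comparisons, with 95% intervals from limma and open symbols where the adjusted p was 0.05 or more. The 3 comparisons against PI lay on the same side of 0 for each probe, LEAP-2 in MI vs. PI missed the call at 1.37, and all 5 intervals of AI vs. MI included 0.

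The 3 slides of the arrays each held every segment, and slide 3 was scanned on another day. Within slides 1, 2 and 3, AI-MI minus PI was 8.09, 9.20 and 6.21 for lysozyme C, and each passed the test. For LEAP-2-like it was 4.92, 6.50 and 5.52, and for beta-defensin -8.31, -6.96 and -6.45, all of them called. Lysozyme g had -2.44, -1.77 and -1.44, the last of which was not called (adjusted p = 0.107). LEAP-2 had 1.61, 0.92 and 3.21, of which only slide 3, with PI replicates 6, 7 and 8, was called (adjusted p = 0.0385). Arrays with the same replicate number were also compared. Where 2 segments did not overlap, any pairing gives the same counts, so those counts add no support. The pairing rule described below asks for a correlation above 0.1 in every pair. Only 6 of 7 pairs of MI and PI had it, so the MI numbers did not pass and their counts join equal numbers only. Lysozyme C and LEAP-2-like were higher in AI than in PI in 8 of 8 pairs and in MI than in PI in 7 of 7. Beta-defensin was lower in AI in 8 of 8 pairs and in MI in 7 of 7, and lysozyme g in 8 of 8 and 6 of 7. LEAP-2 was higher in AI than in PI in 8 of 8 pairs, by 0.88 to 4.44, and in MI in 5 of 7.

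**Figure D4:**
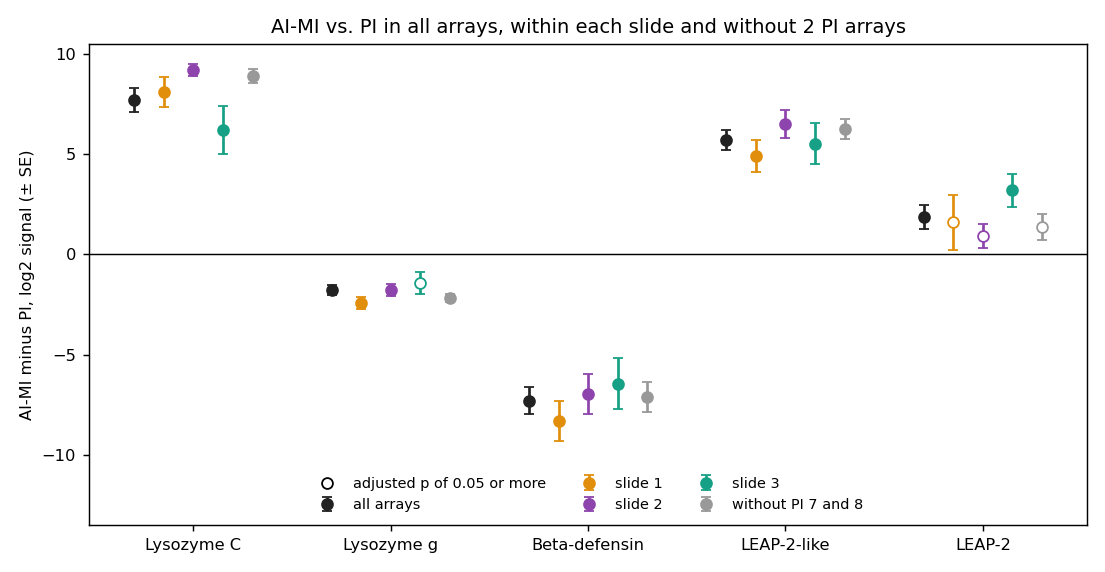
AI-MI minus PI in log2 signal ± SE (vertical axis) for the 5 probes over all arrays, within each of the 3 slides and without PI replicates 7 and 8, with open symbols where the adjusted p was 0.05 or more. Every value lay on the same side of 0 as the one from all arrays, and LEAP-2 lost its call within slides 1 and 2 and without the 2 PI arrays.

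In PI all 5 members spread more between arrays than most probes, and in AI and MI all but lysozyme g did. With 1 spot per array, the spread of a member taken alone does not separate differences between fish from noise of measurement. Beta-defensin was close to background in AI, with 4 of 8 arrays within 1 log2 unit of the lowest signal called well above it. On MI replicate 2 it was not well above background. In AI, 97.7% of the probes tested had a smaller SD than LEAP-2, 95.9% a smaller one than beta-defensin, 92.1% a smaller one than lysozyme C, 79.04% a smaller one than LEAP-2-like and 34.5% a smaller one than lysozyme g. In PI this was so of 95.6 to 99.4% of the probes for each of the 5 members. In MI it was 99.2% for beta-defensin, 98.4% for LEAP-2, 94.1% for LEAP-2-like, 64.7% for lysozyme C and 37.1% for lysozyme g. The arrays that departed were not the same for every member. AI replicate 3 had the lowest lysozyme C of AI and the highest LEAP-2, AI replicate 2 the lowest LEAP-2-like and LEAP-2 and the highest beta-defensin, and MI replicate 3 the lowest LEAP-2-like and the highest lysozyme C and lysozyme g of MI. MI replicate 7 had the highest beta-defensin, LEAP-2 and LEAP-2-like of MI.

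In PI, replicates 7 and 8 were the highest for lysozyme C and LEAP-2-like, the lowest for LEAP-2, and among the 3 lowest for lysozyme g, so that the former 2 and lysozyme g lay nearer to the AI-MI level there and LEAP-2 farther from it. For beta-defensin they were not on one side, at 2.06 and 4.04. Over the 2766 probes that were called with AI-MI above PI and had a value on every PI array, these 2 arrays were the highest PI arrays in 530 (19.2%), and over all 12863 probes with such values in 1262 (9.81%). Over the 2901 probes with such values called with PI higher, they were the 2 lowest in 449 (15.5%) and the 2 highest in 109 (3.76%). Lysozyme g, with PI replicate 4 below replicate 8, is not among the 449. Over all 12863 probes they were the 2 lowest in 943 (7.33%), and over the 2766 in 68 (2.46%), LEAP-2 among them. Marker lists also moved on PI replicates 7 and 8. The mean log2 signal of the enterocyte list was 2.66 and 2.02 in PI replicates 7 and 8 and 0.60 to 1.43 in the others. Within PI, lactase-phlorizin hydrolase ran from -4.45 to 4.03 (SD 3.49) and liver-type fatty acid-binding protein had an SD of 2.43. The other markers with a value on every PI array had SDs of 0.30 to 0.94, so few probes moved the list mean. Lactase-phlorizin hydrolase is also among the probes most like lysozyme C, given below. Cadherin-17 was missing from this mean on PI arrays where its spot was left out. The mean of the B cell list was 0.18 and 0.77, against 1.34 to 2.34, and that of the T cell list -3.05 and -2.62, against -2.28 to -1.59. The exocrine pancreas list instead set PI replicates 5 and 6 apart, at 0.33 and 0.77 against -4.47 to -3.85 in the other 6, and these were the arrays with the lowest LEAP-2-like. The part of these cells in the members' signals was not tested.

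**Figure D5:**
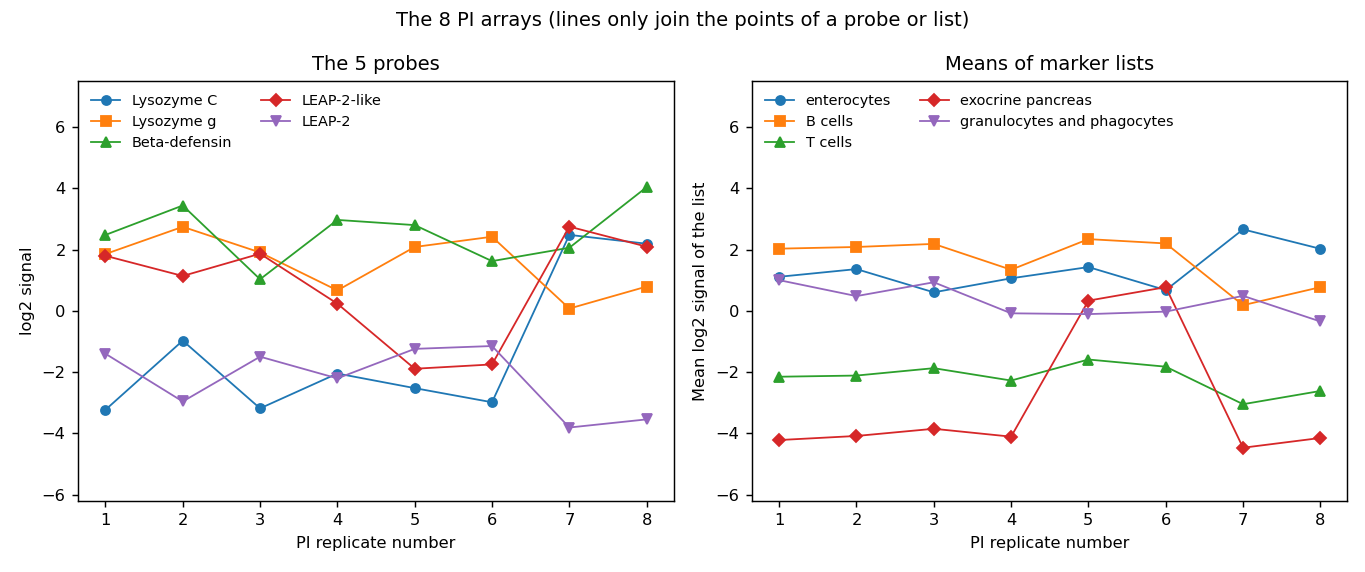
Log2 signal of the 5 probes (left) and mean log2 signal of 5 marker lists (right) on the 8 PI arrays, by replicate number (horizontal axes). In replicates 7 and 8 lysozyme C stood at 2.48 and 2.19 with the enterocyte list at 2.66 and 2.02, and in replicates 5 and 6 LEAP-2-like stood at -1.89 and -1.75 with the exocrine pancreas list at 0.33 and 0.77.

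To find the patterns most like each member, deviations from the segment means were correlated over the 23 arrays with the 3489 other named probes that had a value on every array, and the 3 highest were taken. These are descriptions, the highest of many, and the arrays share their scaling. Where 2 arrays are left out below, deviations from the means of the full segments were kept. The other arrays of those segments are then not centered on 0, and this offset remains in the r. Lysozyme C was most like type-4 ice-structuring protein LS-12, named after a fish antifreeze protein (r = 0.90, rho = 0.62), lactase-phlorizin hydrolase, which splits lactose (r = 0.90, rho = 0.60), and ectonucleotide pyrophosphatase/phosphodiesterase family member 7, an enzyme that digests sphingomyelin (r = 0.90, rho = 0.63). Without PI replicates 7 and 8 these were 0.72, 0.71 and 0.71, and within AI and MI alone they lay between -0.54 and 0.26, so that the likeness rested on the PI arrays. Lysozyme g was most like Toll-like receptor 2, a sensor of bacterial lipoproteins (r = 0.82, rho = 0.72), beta-1,3-galactosyltransferase 2 (r = 0.78, rho = 0.81) and Ig kappa chain V-III region MOPC 63-like, an antibody light chain (r = 0.78, rho = 0.75). Without the 2 arrays farthest from the middle, PI replicates 2 and 7, they were 0.80, 0.77 and 0.69. Within AI they were 0.58, 0.43 and 0.13, within MI 0.67, 0.77 and 0.75 and within PI 0.90, 0.87 and 0.90.

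Beta-defensin was most like zona pellucida sperm-binding protein, a name from the egg coat (r = 0.79, rho = 0.74), nephrosin, a metalloprotease of fish (r = 0.72, rho = 0.68), and perforin, a pore-forming protein of killer cells (r = 0.71, rho = 0.73). Without MI replicates 2 and 7 these were 0.62, 0.60 and 0.66. Within PI, where beta-defensin was high, they were 0.34, -0.30 and 0.61, against 0.66 to 0.86 within AI and MI. The 0.61 is that of perforin, which was well above background on no PI array. Beta-defensin itself was close to background in AI, with 4 of 8 arrays within 1 log2 unit of the lowest signal called well above it. On MI replicate 2 it was not well above background. LEAP-2-like was most like neutral ceramidase, which splits ceramide in the gut (r = 0.83, rho = 0.75), GATA-binding factor 6-A, a transcription factor of the gut epithelium (r = 0.77, rho = 0.64), and inorganic pyrophosphatase (r = 0.77, rho = 0.77). Without PI replicates 5 and 6 they were 0.61, 0.72 and 0.80. LEAP-2 was most like natural resistance-associated macrophage protein 2, an iron carrier (r = 0.78, rho = 0.66), membrane primary amine oxidase (r = 0.77, rho = 0.69) and oligopeptide transporter, OPT family (r = 0.73, rho = 0.65). Without AI replicate 3 and MI replicate 7 they were 0.65, 0.67 and 0.52. Within AI they were 0.93, 0.82 and 0.80, within MI 0.83, 0.95 and 0.90 and within PI 0.36, 0.38 and 0.45. The members were not among each other's nearest. LEAP-2-like and LEAP-2 had r = -0.10 and rho = 0.01, and lysozyme C and lysozyme g r = -0.56 and rho = -0.32. These values pool unlike segments. Within AI, MI and PI the LEAP-2 pair had r = 0.82, 0.05 and -0.67, and the lysozyme pair 0.14, 0.20 and -0.68.

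Other genes of host defense and markers of cell types were counted beside the members in 12 lists. All names come from the study's list of genes called between AI-MI and PI on these arrays, so that a call was fixed in advance and nothing can be read from the counts against the 44.1% of all probes called (21.5% with AI-MI above PI and 22.6% below). Of the other antimicrobial effectors, 5 of 6 were higher in AI-MI and 1 was lower, with a median difference of 3.31 (all probes 0.01), or 2.77 with perforin at its bound, and 1.74 with normexp (all probes 0.13). The largest differences were those of natterin-3-like, named after a toxin of toadfish venom (15.09, adjusted p = 5.0e-14), and acidic mammalian chitinase, which splits chitin (14.57, adjusted p = 2.2e-12), although on the PI arrays the former was well above background on 2 of 8 and the latter on 3 of 8. Perforin was well above background on no PI array and at least 8.14-fold higher in AI-MI, the bound set against the lowest signals well above background. Among 11 soluble lectins and pentraxins, 6 had AI-MI above PI and 5 had it below (median 0.82). The largest fitted differences were those of fucolectin, which binds fucose (7.04, adjusted p = 1.8e-06), and intelectin-2, which binds microbial sugars (at least 32.8-fold higher in AI-MI, adjusted p = 0.0061). That bound lies below the 58.7-fold of C-reactive protein-like (adjusted p = 9.4e-07) and the 41.1-fold of serum amyloid P-component (adjusted p = 1.2e-06), so the place of intelectin-2 rests on signals at background. Intelectin-2 was well above background on 8 of 8 AI arrays but on 1 of 7 MI arrays and no PI array. It was at least 600.5-fold higher in AI than in PI (adjusted p = 2.5e-07), while MI vs. PI was not called (adjusted p = 0.244). Of 4 complement probes 3 were tested and all 3 were higher in AI-MI (median 2.14, and 0.48 with normexp), complement factor B by 3.66 (adjusted p = 0.0023). Taken apart, complement factor B exceeded PI by 5.53 in AI (adjusted p = 3.7e-06) and by 1.54 in MI (adjusted p = 0.0423). Complement component C8 beta chain differed by 2.14 (adjusted p = 8.8e-07), but it was well above background on only 3 of 8 AI, 5 of 7 MI and 1 of 8 PI arrays, so that this is a difference between signals mostly near background. No probe of these lists was called in AI vs. MI.

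Among the markers of cell types, chosen from the same called genes, granulocyte and phagocyte markers were higher in PI for 7 of 8 probes and lower for 1 (median -1.54), led by eosinophil peroxidase (lower in AI-MI, at -2.22, adjusted p = 1.5e-04) and myeloperoxidase (-2.19, adjusted p = 1.6e-04). Their summed signal, in multiples of the 75th percentile, was 3.58 to 8.19 in AI, 5.45 to 13.54 in MI and 9.14 to 40.9 in PI, and all 8 were well above background on every array. B cell markers were higher in PI for 7 of 7 (median -2.25), with the 2 signaling chains of the B cell receptor, an alpha chain-like probe (L12_82586) and CD79b, at -3.52 each (adjusted p = 3.2e-06 and 3.1e-06) and summed signals of 13.97 to 111 in AI, 27.1 to 145 in MI and 59.1 to 401 in PI. T cell markers were higher in PI for 7 of 8 and lower for 1 (median -1.25), led by T-cell-specific surface glycoprotein CD28 homolog (-2.29, adjusted p = 2.4e-05) and T-cell surface glycoprotein CD4 (-2.07, adjusted p = 4.1e-05). The 1 lower in PI was T-cell receptor beta chain ANA 11 (1.68, adjusted p = 1.6e-07). Its mean signals in AI and MI, 1.23 and 0.90, were the highest of the list, so it weighed most in the summed signals there. These sums overlapped, at 2.77 to 4.48 in AI, 2.95 to 4.30 in MI and 2.84 to 4.84 in PI, which does not show equal T cell signals. In the direction of lysozyme C and LEAP-2-like, 10 of 10 enterocyte markers were higher in AI-MI (median 1.52), most of all meprin A subunit beta (9.22, adjusted p = 5.8e-07) and lactase-phlorizin hydrolase (8.86, adjusted p = 5.9e-09), and their summed signals were 662 to 1014 in AI, 642 to 931 in MI and 63.2 to 188 in PI. The enterocyte sums skip liver-type fatty acid-binding protein or cadherin-17 on arrays where the spot was left out.

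Exocrine pancreas markers, also named only from the called genes, were higher in AI-MI for 15 of 15 (median 6.25, and 5.004 with normexp). The highest fitted differences were those of chymotrypsin-like elastase family member 2A (8.74, adjusted p = 2.1e-04) and elastase-1 (8.43, adjusted p = 1.8e-04), but the former was well above background on 5 of 8 PI arrays and the latter on 2 of 8, so that their size and order depend on background signals. The list had summed signals of 94.9 to 1688 in AI, 51.9 to 3741 in MI and 3.61 to 54.8 in PI. Liver secreted proteins were higher in AI-MI for 4 of 5 and lower for 1 (median 1.501, and 0.45 with normexp), led by ceruloplasmin (4.11, adjusted p = 2.9e-06) and prothrombin (1.99, adjusted p = 0.0014), which were well above background on 5 of 8 and 6 of 8 PI arrays, with summed signals of 0.22 to 0.78 in AI, 0.27 to 1.29 in MI and 0.14 to 0.27 in PI. Erythrocyte markers were higher in AI-MI for 3 of 3 (median 1.203), hemoglobin subunit beta-2 by 2.45 (adjusted p = 0.0073) and hemoglobin subunit alpha-D by 1.203 (adjusted p = 2.3e-04). Smooth muscle markers were higher in PI for 6 of 7 and lower for 1 (median -1.08), with myosin-11 at -1.54 (adjusted p = 4.6e-06) and smoothelin-like protein 2 at 1.53 (adjusted p = 3.9e-04). Mucin-5B, the only probe listed for goblet cells, was well above background on no AI or MI array and at least 3.76-fold higher in PI (adjusted p = 1.5e-06), a call that normexp did not give. The paper describes goblet cells of teleosts as becoming less dense along the intestine, so this probe is not taken as a measure of goblet cells. Without PI replicates 7 and 8 the counts of these 12 lists were as given here. Without MI replicates 5 and 7, 1 call each was lost among the other antimicrobial effectors (0 instead of 1 lower in AI-MI) and the erythrocyte markers (2 instead of 3), and normexp left 6 of 7 B cell and 5 of 8 T cell markers called higher in PI. With quantile normalization 5 instead of 6 of the 11 soluble lectins and pentraxins were called higher in AI-MI. The part of any of these cell types in the members' differences was not tested.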

How the data were processed

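RNA of 23 intestinal segments was labeled with Cy3 and hybridized to a custom array, 1 array per segment and fish. The authors made the deposited intensity values with Agilent Feature Extraction 11.5.1.1 (processed signal, background-subtracted and detrended, not scaled between arrays), and the files also hold median spot and background intensities. The authors' deposited log2 table, used only as an alternative, matched the log2 signals once these were scaled to the 75th percentile and centered on probe medians (median absolute difference 0.00245 to 0.0152 per array). Paper and labels give different RNA amounts, and an eighth MI array was not analysed here.

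Control and outlier spots were left out, log2 processed signals were averaged per probe and expressed relative to the 75th percentile of their array. Probes well above background on at least 7 arrays were fitted with limma 3.58.1 (R 4.3.3), with only the groups compared in each fit. Within-array differences were tested by exact permutation over all arrays compared, with no pairing, and other values were computed with Python 3.11.15. The scripts were tested on simulated data. The number of arrays limits the precision. Names are those of the study's list of called genes, which names 3652 of the 14147 probes.

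The members and the 12 lists were chosen with earlier results of these data known. The text names the members, the 3 named probes most like each of them and, from each list, the 2 probes with the largest difference in AI-MI vs. PI. Perforin and mucin-5B also appear for their bounds, and perforin as one most like beta-defensin. Alternatives were quantile and normexp scaling (offset 50, on median signals, since the columns used hold no means), other filters, a floor, the authors' table, the methods' t-test, an eBayes trend, replicate and slide blocks, fits within slides, a joint fit and each array left out. The joint removals of PI replicates 7 and 8 and of MI replicates 5 and 7 were chosen after seeing the data. Neither labels nor methods say that equal replicate numbers mark the same fish. Between AI and PI, deviations from the segment means of same-numbered arrays had correlations from 0.19 to 0.59 (median 0.35, and -0.05 where numbers differed), above 0.1 in 8 of 8 pairs, so these numbers pair the arrays by that rule. The rule asks this of every pair. For AI and MI, and for MI and PI, only 6 of 7 pairs were above 0.1, so the MI numbers did not pass it.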

Additional observations from a re-analysis of the deposited data

Results flagged for a closer look

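Within AI, replicate 3 had a LEAP-2-like minus LEAP-2 difference of 4.56 on the log2 scale, far below the other 7 AI arrays for the range of the segment. This array had the highest LEAP-2 signal of all 23 arrays, 2.94, and a LEAP-2-like signal of 7.51, near the top of AI. Each of the 5 members and both within-array differences were examined in each segment, 21 groups in all, of which 1 was set apart by this test, and chance alone sets apart about 1 in 20. Without AI replicate 3 the shift of this difference between AI and MI was 0.05 (exact permutation p = 0.951), instead of -0.26.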

How the results depend on the processing

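Of 505 alternative fits of the members' differences from PI, all kept the direction and 490 also the outcome, called or not called. LEAP-2 in MI vs. PI was not called in the main fit and stayed uncalled in every alternative (lowest limma adjusted p = 0.0623). Its fits count among the 490. The other 15 were within single slides or without PI replicates 7 and 8. LEAP-2 was not called in AI-MI vs. PI within slide 1 (1.61), within slide 2 (0.92) or without these PI arrays (1.37), nor in AI vs. PI within slides 1, 2 and 3 (2.63, 1.13 and 3.15). Lysozyme g lost its call in AI-MI vs. PI within slide 3 (-1.44), in AI vs. PI within slide 3 (-1.60) and in MI vs. PI within slides 2 and 3 (-1.72 and -1.27). Within slide 3, lysozyme C was not called in AI vs. PI (6.23) and MI vs. PI (6.18), LEAP-2-like in AI vs. PI (5.86) and MI vs. PI (5.17), and beta-defensin in MI vs. PI (-5.003). These fits hold fewer arrays. The replicate block changed no call of a member (AI-MI vs. PI 7.82 for lysozyme C, -1.81 for lysozyme g, -7.31 for beta-defensin, 5.77 for LEAP-2-like and 1.83 for LEAP-2). It also joined MI arrays by number, although the MI numbers did not pass the pairing rule.

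For AI vs. MI no alternative gave a called member, and the sign turned for lysozyme C within slides 2 and 3 (0.21 and 0.047), beta-defensin within slide 1 (0.37) and LEAP-2 within slide 3 (-0.11). With single arrays left out, the AI vs. MI shift ran from -0.69 to 0.11 for LEAP-2-like minus LEAP-2 and from -0.21 to 0.18 for lysozyme C minus lysozyme g. The count of probes called in AI vs. MI was 0 to 588 with single arrays left out, the highest without AI replicate 2 and 40 without MI replicate 7. It was 36 without MI replicates 5 and 7 and 49 in the joint fit. Within slides 1, 2 and 3, 1410, 3508 and 2033 probes were called in AI-MI vs. PI, 482, 3005 and 1531 in AI vs. PI and 1268, 1404 and 261 in MI vs. PI. Dim signals limit the size of the beta-defensin difference, and gene names were held for only the probes that the study called.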

Other observations

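Among all 12774 probes with a value on every array, named or not, the one most like LEAP-2 in its deviations from the segment means had no name in the sources used here (L12_66055, r = 0.86, rho = 0.84, and r = 0.77 without AI replicate 3 and MI replicate 7). It was chosen after its values were seen, as the highest of these correlations. For the other 4 members the most similar probe overall was the named one given above.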
